A study of Mus musculus with 6 samples.

Results

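The genes described here are 8 members of the ribonuclease A superfamily, the eosinophil-associated ribonuclease genes Ear1, Ear2, Ear6 and Ear10, the angiogenin genes Ang, Ang2 and Ang5, and Rnase4. They were taken by symbol from a matrix of 56980 mouse genes, and 8 of 8 were found. They were picked with earlier results of these same lungs in view, so their levels and differences between the groups are a description. Counts of members past a threshold are printed only beside the share or number of all genes past it, and support nothing. The 6 libraries came from lungs of immunodeficient NSG mice, a strain without mature lymphocytes, collected 5 weeks after an injection of human breast cancer cells into the mammary fat pad. In the Ctrl group (n = 3) the injected cells were MDA-MB-231, a triple-negative breast cancer line. In the DPP3_KO group (n = 3) they were MDA-MB-231 cells with DPP3, the gene of dipeptidyl peptidase 3, knocked out, and the mice of both groups thus bore tumours while the host genome was not edited. The study asked how DPP3 released by the cancer cells bears on lung metastasis. The labels do not give the age or sex of the mice, whether the knockout line was a single clone, or that each library came from its own mouse, so p-values measure only the spread between these samples, which may be technical.

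Enzymes of the ribonuclease A superfamily are small secreted proteins that cut RNA, and many of them also act against microbes or on other cells. The mouse Ear genes are a rapidly duplicated rodent branch related to the human eosinophil granule ribonucleases, and Ear1 and Ear2 are known as strongly expressed genes of resident alveolar macrophages, in spite of the family's name. Angiogenin promotes blood vessel growth, enters the nucleus and cleaves transfer RNA under stress. Ang and Rnase4 lie in one locus and are transcribed from common promoters into different coding exons, while the other mouse angiogenins are separate duplicated genes.

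Values are in TPM, a transcript abundance per length that can be compared between genes. Each library sums to the same total, so the depth behind a value is unknown. The surfactant gene Sftpc stood at 14519 to 38794 TPM and the club cell gene Scgb1a1 at 71578 to 287457 TPM, so lung markers were present in all 6 libraries. The share of Scgb1a1 in a library's summed TPM was 8.33% ± 1.58 (SD, n = 3) for Ctrl against 26.1% ± 3.84 for DPP3_KO. Log2 changes are DPP3_KO minus Ctrl of log2(TPM + 1), a scale that makes the change of a low gene look smaller than it is. Their median over the 15650 genes tested was -0.60 as deposited, so a change near that value is the one of the typical gene. The libraries were also rescaled by median-of-ratios factors, here called ratio scaling, which brought that median to -0.02.

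The 8 genes fell into 2 patterns. Ear1, Ear2, Ear6, Ear10, Ang2 and Ang5 stood 8.998 to 39.7 times as high in the mean of Ctrl as in the mean of DPP3_KO, while Ang and Rnase4 stood 1.46 and 1.81 times as high. With TPM as deposited 7 of the 8 were called lower in DPP3_KO (limma with Benjamini-Hochberg adjustment, threshold 0.05), where 34.0% of all genes tested were. With ratio scaling 6 of the 8 were, where 0.880% of all genes were, and with quantile normalization 6 of the 8, where 0.895% were. Under these 3 scalings 0 of the 8 were called higher, as were 1.38%, 1.96% and 2.09% of all genes. All 8 passed the filter of a mean of at least 1 TPM. Of the 8, 5 had a log2 change of -3 or lower as deposited, as had 0.396% of all genes. The median of the 8 was -3.36 as deposited and -2.83 after that scaling. In 7 of 8 every DPP3_KO library lay below every Ctrl library, as in 51.1% of all genes, and with ratio scaling in 6 of 8, as in 15.0% of all genes. The members were chosen from this contrast. The counts also rested on single libraries. As deposited, 5321 genes in all were lower, against 85 without Ctrl replicate 2 and 1037 without Ctrl replicate 1. They numbered 1726 without DPP3_KO replicate 3 and 3238 without DPP3_KO replicate 1. The number of members called ranged from 5 without Ctrl replicate 2, where 85 of 15503 genes were lower, to 8 without Ctrl replicate 3, where 4457 of 15502 were. After median-of-ratios scaling, calls over all genes also fell when 1 library was left out, with 15393 to 15767 genes tested. There 2 members were called without Ctrl replicate 1 or DPP3_KO replicate 2, where 19 of 15421 and 8 of 15579 genes were lower. Without Ctrl replicate 3 or DPP3_KO replicate 3 it was 3 members, beside 57 of 15425 and 21 of 15767 genes. Without Ctrl replicate 2 it was 4 members, beside 49 of 15393 genes, and without DPP3_KO replicate 1 it was 6, beside 177 of 15694.

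**Figure D1:**
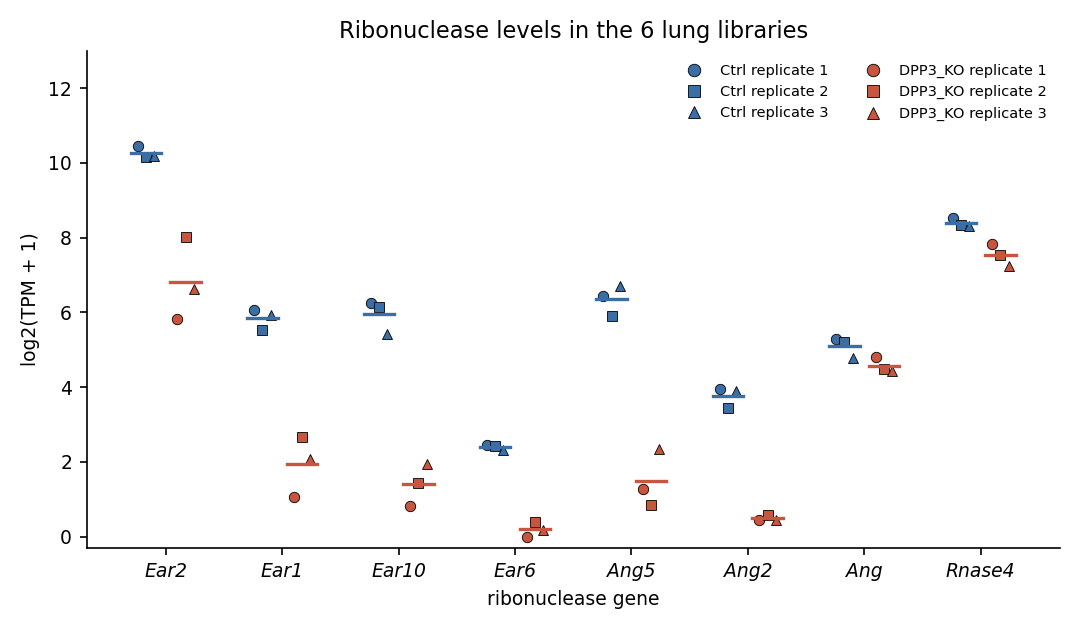
Levels of the 8 ribonuclease genes as log2(TPM + 1) in each of the 6 lung libraries, with Ctrl in blue, DPP3_KO in red, a marker shape for each replicate number and a bar at each group's mean. The groups lie far apart for the Ear genes, Ang5 and Ang2, closer for Rnase4, and they touch for Ang, where the lowest Ctrl library is at 26.6 TPM and the highest DPP3_KO library at 26.7 TPM.

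The Ear genes are close copies, and their sequences bear on how far each value can be read alone. The first 60 coding bases are shown from the GENCODE M21 transcripts, 5′ to 3′, with capitals where a base differs from Ear2, because they show how little separates the copies.
Ear2: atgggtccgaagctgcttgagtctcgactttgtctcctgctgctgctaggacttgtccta
Ear1: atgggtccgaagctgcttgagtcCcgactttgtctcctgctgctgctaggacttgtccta
Ear10: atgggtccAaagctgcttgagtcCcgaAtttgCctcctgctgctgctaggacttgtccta
Ear6: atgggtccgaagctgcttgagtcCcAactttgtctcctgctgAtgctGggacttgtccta
In this stretch Ear1 differed from Ear2 at 1 base, and Ear10 and Ear6 each at 4. Over the whole coding sequence Ear2 was 97.0% identical to Ear10 and 95.1% to Ear1, whereas Ear6 was 87.7% identical to Ear2. Of all 100-base windows of the transcript, 33.9% in Ear10, 30.2% in Ear1 and 13.9% in Ear2 occurred letter for letter in a transcript of another gene (for Ear10, in Ear1, Ear2 or the pseudogene Ear-ps2), and 0 of 794 windows in Ear6 did. Reads from such windows cannot be told apart by sequence, so the split between Ear1, Ear2 and Ear10 is uncertain and the sum of the Ear genes is given too. The reference describes C57BL/6J, not the strain of these mice, whose own copies of these genes were not analysed here.

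Ear2, the most abundant member in Ctrl, stood at 1401, 1134 and 1169.7 TPM in the 3 Ctrl libraries and at 55.4, 258.9 and 97.3 TPM in the 3 DPP3_KO libraries. Every DPP3_KO library was below every Ctrl library, and DPP3_KO replicate 2 was the highest of its group. In Ear2 the change was -3.45 ± 0.50 (SE) as deposited and -2.78 with ratio scaling. Ear1 stood at 66.2, 45.0 and 60.3 TPM in the Ctrl libraries and at 1.09, 5.39 and 3.21 in DPP3_KO, with the lowest and highest DPP3_KO libraries the same as for Ear2. Its log2 change was -3.91 ± 0.40 (SE), or -3.34 with ratio scaling. Ear10 stood at 75.8, 70.1 and 41.7 TPM in the Ctrl libraries and at 0.760, 1.71 and 2.81 in DPP3_KO. Here DPP3_KO replicate 3, not replicate 2, was the highest of its group, and the log2 change was -4.55 ± 0.35 (SE). Ear6, the 1 of the 4 Ear genes with no window in common with another gene, was the lowest of the 8 members, at 4.46, 4.39 and 3.99 TPM in Ctrl and 0.00, 0.320 and 0.140 in DPP3_KO. The mean of Ctrl was 27.9 times that of DPP3_KO for Ear6, so the difference was also present in this Ear copy. Its log2 change was -2.20 with a pseudocount of 1 and -4.34 with one of 0.1.

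Summed over the 4 Ear genes, the libraries stood at 1547, 1253 and 1276 TPM in the Ctrl libraries and at 57.2, 266 and 103 in DPP3_KO. The log2 change of the sum was -3.52 ± 0.65 (SE), and -2.86 with ratio scaling. Ctrl libraries lay close together and DPP3_KO libraries were spread, and the change was -4.12 without DPP3_KO replicate 2 and -3.02 without DPP3_KO replicate 1. Adding the pseudogene Ear-ps2 gave -3.61. Ear2 made up 90.9% ± 0.687 (SD, n = 3) of the sum in Ctrl and 96.0% ± 1.71 in DPP3_KO. The share of Ear10 was 4.59% ± 1.19 in Ctrl and 1.56% ± 1.06 in DPP3_KO, and that of Ear1 4.197% ± 0.574 and 2.34% ± 0.660. Such shares do not depend on how libraries are scaled to each other, and the 2 groups did not overlap in any of these 3 shares.

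**Figure D2:**
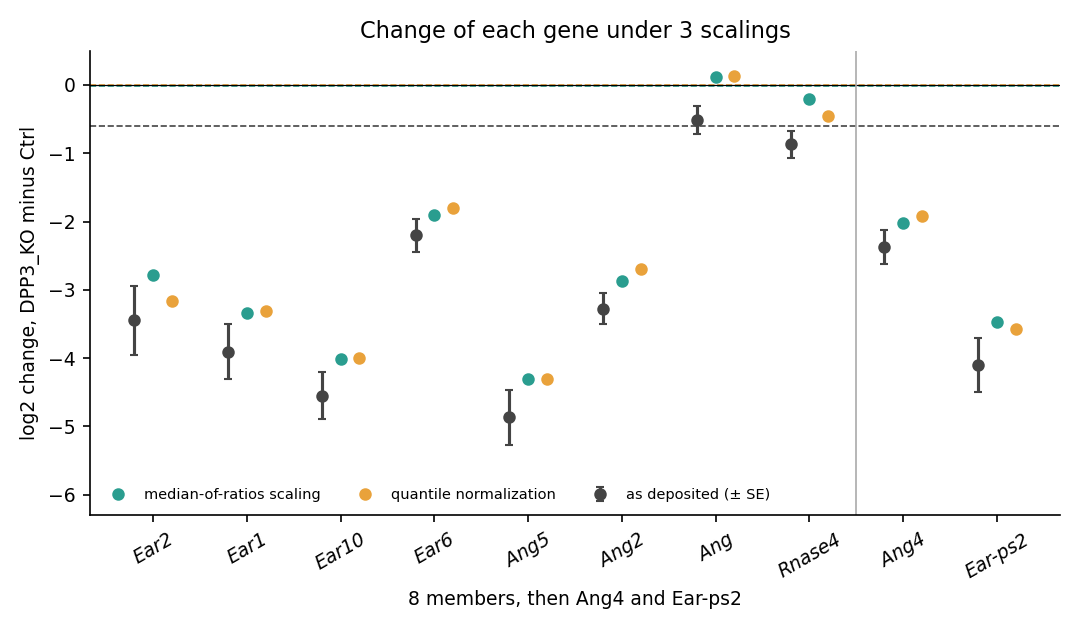
Log2 change, DPP3_KO minus Ctrl, of the 8 members and of Ang4 and the pseudogene Ear-ps2, which are not members, as deposited (dark, ± SE), after median-of-ratios scaling (green) and after quantile normalization (orange), with dashed lines at the median of all genes tested under each scaling. Ang and Rnase4 lie near those medians, at -0.52 and -0.87 as deposited, and the other 8 genes lie at -2.20 or below as deposited.

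Among the angiogenins, Ang5 and Ang2 had much lower values in DPP3_KO, and Ang had values close to those of Ctrl. Their coding starts are shown with capitals where a base differs from Ang5, since this separation differs from that of the Ear copies. Ang4, the angiogenin known from Paneth cells of the gut, is not a member and is shown beside them.
Ang5: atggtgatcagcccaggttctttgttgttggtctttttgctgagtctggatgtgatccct
Ang2: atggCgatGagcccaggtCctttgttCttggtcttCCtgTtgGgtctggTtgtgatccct
Ang4: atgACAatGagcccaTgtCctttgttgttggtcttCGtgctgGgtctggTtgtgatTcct
Ang: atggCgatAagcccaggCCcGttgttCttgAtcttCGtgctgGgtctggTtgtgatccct
Within these 60 bases Ang2 differed from Ang5 at 9 bases, and Ang4 and Ang each at 11. Coding identity was 86.8% between Ang5 and Ang2, 88.1% between Ang5 and Ang4, 85.6% between Ang5 and Ang and 88.1% between Ang2 and Ang. In Ang2, Ang4 and Ang5 0 of 339, 610 and 601 windows of 100 bases occurred in another gene's transcript. These angiogenins can thus be told apart from each other at that length in the reference transcripts. The Ang5 transcript used had 700 bases against 708 deposited, and that of Ang6 had 444 against 714. Windows that Ang5 may have in common with the missing part of Ang6 could not be seen.

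Ang5 stood at 86.4, 58.5 and 103 TPM in the Ctrl libraries and at 1.41, 0.800 and 4.04 in DPP3_KO. Its log2 change, -4.87 ± 0.40 (SE), was the lowest of the 8, and it was -4.31 with ratio scaling. Ang2 stood at 14.6, 9.91 and 13.8 TPM in the Ctrl libraries and at 0.370, 0.490 and 0.360 in DPP3_KO, where the 3 libraries lay close together. The log2 change of Ang2 was -3.28 ± 0.23 (SE), or -2.87 with ratio scaling. Ang, the angiogenin gene proper, stood at 37.7, 36.2 and 26.6 TPM in the Ctrl libraries and at 26.7, 21.6 and 20.5 in DPP3_KO, so that the groups overlapped by 1 library each. Its log2 change was -0.52 ± 0.21 (SE) as deposited, 0.12 with ratio scaling and 0.13 after quantile normalization, so its direction depended on the scaling. Rnase4, a ribonuclease with a preference for uridine, stood at 368, 324 and 319 TPM in the Ctrl libraries and at 226, 183 and 149 in DPP3_KO. Its groups did not overlap as deposited, and its log2 change was -0.87 ± 0.20 (SE), or -0.21 with ratio scaling.

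The sum of Ang, Ang2, Ang5 and Rnase4 had a log2 change of -1.15 ± 0.17 (SE), and -0.49 with ratio scaling. It hid the 2 patterns, since Ang2 and Ang5 together went from 95.5 ± 24.7 TPM (SD, n = 3) to 2.49 ± 1.67, and Ang and Rnase4 together from 370.5 ± 31.0 to 209 ± 41.6. Within single libraries there were 10.3, 11.2 and 8.34 TPM of Ang per 100 TPM of Rnase4 in Ctrl and 11.8, 11.8 and 13.7 in DPP3_KO, the ratio being somewhat higher in each DPP3_KO library. For Ang5 the same ratio was 23.5, 18.1 and 32.3 in Ctrl and 0.624, 0.437 and 2.70 in DPP3_KO. This contrast between Ang5 and Rnase4 was therefore seen without any scaling between libraries.

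In order of level, Ctrl lungs held Ear2 (1235 ± 145 TPM, SD, n = 3), Rnase4 (337 ± 26.6), Ang5 (82.7 ± 22.5), Ear10 (62.5 ± 18.3), Ear1 (57.1 ± 11.0), Ang (33.5 ± 6.02), Ang2 (12.8 ± 2.51) and Ear6 (4.28 ± 0.254). Ang5, Ear10 and Ear1 overlapped in their libraries and cannot be ordered. In DPP3_KO lungs the order was Rnase4 (186 ± 38.4), Ear2 (137 ± 107), Ang (22.9 ± 3.31), Ear1 (3.23 ± 2.15), Ang5 (2.08 ± 1.72), Ear10 (1.76 ± 1.03), Ang2 (0.407 ± 0.0723) and Ear6 (0.153 ± 0.160). There Rnase4 and Ear2 overlapped, as did Ear1, Ang5 and Ear10. The Ear genes made up 74.4% ± 0.988 of the summed TPM of the 8 genes in Ctrl and 37.3% ± 19.01 in DPP3_KO, and Rnase4 18.5% ± 0.698 and 55.0% ± 16.9.

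The promoters of the members were also compared. That of Ang5 was about as unlike those of the Ear genes as the common promoter of Ang and Rnase4 was. Of the 8 members 7 had a window in the RefSeq promoter table (GRCm38.p6), Ang2 being the other. The 250 bases before the start are shown for Ear2 and Ang5, as examples of genes much lower in DPP3_KO, and for the start that Ang and Rnase4 have in common. Capitals mark TATAT beginning 20 to 40 bases before the start, extended where matches overlap, and AGGAAGT, a purine-rich ETS-type core, anywhere, both searched on both strands.
Ear2, chr14:44102404-44102653, plus strand: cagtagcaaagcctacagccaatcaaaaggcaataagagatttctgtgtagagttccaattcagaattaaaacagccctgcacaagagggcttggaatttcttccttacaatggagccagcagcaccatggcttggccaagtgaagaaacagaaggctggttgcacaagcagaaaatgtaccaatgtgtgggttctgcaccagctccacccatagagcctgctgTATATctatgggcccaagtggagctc
Ang5, chr14:43956819-43957068, plus strand: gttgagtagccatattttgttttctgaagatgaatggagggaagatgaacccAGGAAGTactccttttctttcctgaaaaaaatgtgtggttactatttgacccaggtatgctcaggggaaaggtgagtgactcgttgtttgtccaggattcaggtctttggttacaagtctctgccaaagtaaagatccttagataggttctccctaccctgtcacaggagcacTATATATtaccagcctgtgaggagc
Ang and Rnase4, chr14:51090827-51091076, plus strand: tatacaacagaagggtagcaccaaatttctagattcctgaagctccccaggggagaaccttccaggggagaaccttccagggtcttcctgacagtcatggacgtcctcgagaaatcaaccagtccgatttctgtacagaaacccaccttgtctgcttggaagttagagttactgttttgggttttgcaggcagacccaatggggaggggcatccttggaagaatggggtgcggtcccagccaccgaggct
The upstream windows of Ear1, Ear2, Ear6 and Ear10 were 77.3% to 97.6% identical to each other, and that of Ang5 was 77.9% identical to that of Ang4. The window before the common start of Ang and Rnase4 was 44.7% to 45.5% identical to these, and that of Ang5 was 46.8% to 47.8% identical to the Ear windows. Identity ran from 40.2% to 50.5% over all pairs compared outside close copies and common starts, so such values show no particular likeness. TATAT at that distance was found in all of the Ear1, Ear2, Ear6, Ear10, Ang4 and Ang5 windows and in 2.56% of the 32817 promoter windows of the table, and not at the common start of Ang and Rnase4. AGGAAGT, which stands in 7.69% of promoter windows, was found upstream of Ang5, Ang4 and a second, internal start of Rnase4, and not in the Ear windows. The internal Rnase4 start did not hold TATAT at that distance, and gene-level TPM cannot tell which start was used. Ang6, whose upstream window has the same 250 letters as that of Ang5, was listed at 0 in all 6 libraries. These motifs were chosen after the values were seen, and a match describes letters only.

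All 8 genes lie on chromosome 14, where members with the large difference lie on both sides of Rnase4 and Ang. In GENCODE M21, used for order only because the matrix was made with another build, Ear1, Ear10, Ang5 and Ear2 lie in one group together with several Ear and Ang pseudogenes. Rnase4 and Ang lie next to each other in a further group that also holds Rnase6, Rnase1, Ang2 and Rnase2a, and Ang4 and Ear6 follow after that. Ang2 (-3.28) thus lay in a group with Rnase6, Rnase1 and Rnase2a, whose changes were much smaller. Rnase1 and Rnase2a stood at means of only 1.28 and 2.24 TPM in Ctrl, where the log2(TPM + 1) scale leaves little room for a fall. Ang4, which follows that group, was at -2.37. Of 16 listed neighbours of the region 13 were tested. As deposited 9 were lower, where 34.0% of all genes tested were, and 0 higher, with a median log2 change of -0.67. With ratio scaling 1 was lower and 1 higher, where 0.880% and 1.96% of all genes were. The higher one was Ndrg2, named after its values were seen, at 0.94 with ratio scaling (limma adjusted p = 0.0437) and 0.28 as deposited (0.296). The zinc transporter gene Slc39a2, at -2.37 as deposited (limma adjusted p = 0.0156) and -2.06 with ratio scaling (0.0487), was the lower one. Its call was lost as deposited without Ctrl replicate 2 (limma adjusted p = 0.0736), and with ratio scaling without any 1 library other than Ctrl replicate 3 (0.0750 to 0.184). The DNA repair gene Apex1 (-0.99), the telomerase-associated gene Tep1 (-1.26) and the zinc finger gene Zfp219 (-0.85) were lower as deposited (limma adjusted p = 0.0168 to 0.0208) and not with ratio scaling (0.140 to 0.467). These 3 calls were also lost as deposited without Ctrl replicate 1 or 2, and that of Tep1 without DPP3_KO replicate 3 (limma adjusted p of 0.0513 to 0.0903 over these).

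**Figure D3:**
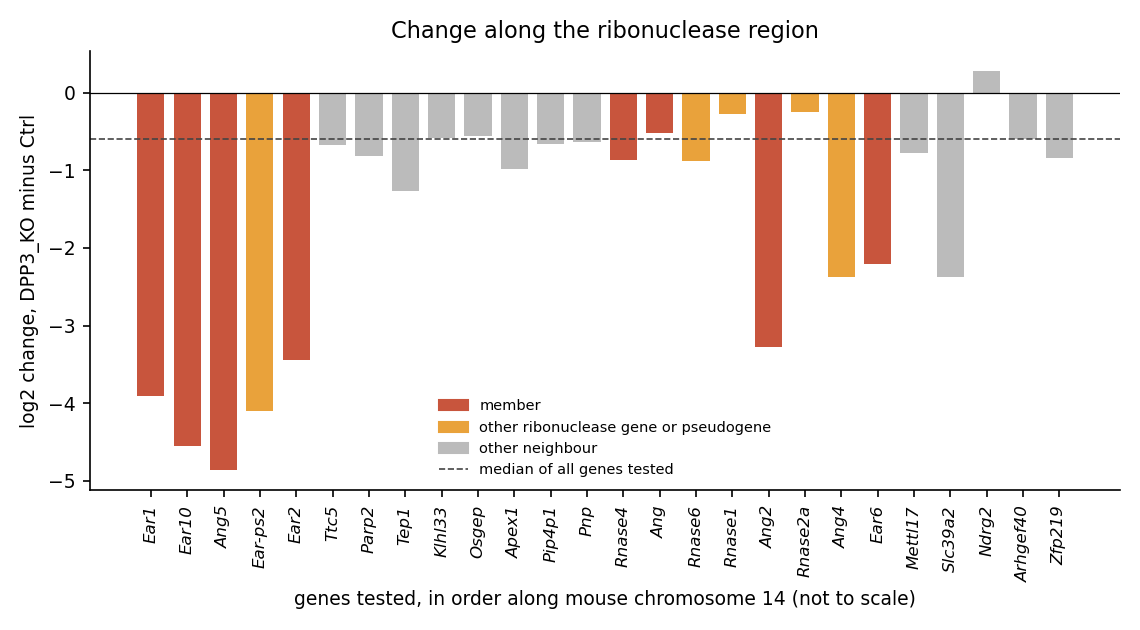
Log2 change, DPP3_KO minus Ctrl as deposited, of the ribonuclease genes and listed neighbours that were tested, in their order along mouse chromosome 14, with members in red, other ribonuclease genes and a pseudogene in orange, other neighbours in grey and a dashed line at the median of all genes tested (-0.60). The bars of Ang2, Ang4 and Ear6 reach -3.28, -2.37 and -2.20 beyond the small bars of Rnase4 and Ang, and Slc39a2 is a further long grey bar.

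Other genes of the superfamily, which were not chosen as members, were tested in the same fit. Of 17 listed, 12 were in the matrix, 5 of them at 0 in all libraries, and 4 passed the filter. Of these 4, 2 were lower and 0 higher as deposited, where 34.0% of all genes tested were lower, with a median log2 change of -0.58. With ratio scaling 1 was lower, where 0.880% of all genes were. That gene was Ang4, at 5.90, 4.81 and 5.22 TPM in Ctrl and 0.00, 0.280 and 0.410 in DPP3_KO, with no overlap. Ang4 fell by 2.37 ± 0.25 (SE) on the log2 scale (limma adjusted p = 0.0144), and stood at -2.02 with ratio scaling (adjusted p = 0.0184). After that scaling its call was lost without Ctrl replicate 1, 2 or 3 or DPP3_KO replicate 2 (limma adjusted p = 0.0860, 0.0639, 0.0558 and 0.0623). Rnase6, an antimicrobial ribonuclease of monocytes and macrophages, was lower as deposited at -0.88 (limma adjusted p = 0.0288), at -0.30 with ratio scaling (0.513), and was not called with any 1 of the 6 libraries left out. Rnase1 (-0.28) and Rnase2a (-0.25), an eosinophil-type ribonuclease gene, did not pass (limma adjusted p = 0.575 and 0.637).

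The pseudogene Ear-ps2, named after its values were seen, stood at 271, 229.7 and 236 TPM in the Ctrl libraries and at 7, 25.2 and 12.9 in DPP3_KO. It fell by 4.10 ± 0.40 (SE) on the log2 scale (limma adjusted p = 0.0123), and stood at -3.47 with ratio scaling (0.0138), where the call was lost without Ctrl replicate 1 (adjusted p = 0.0593) or DPP3_KO replicate 3 (0.0527). Of its 100-base windows 11.7% occurred in Ear10 or Ear2, so its reads are not wholly its own. There were 19.4, 20.3 and 20.2 TPM of Ear-ps2 per 100 TPM of Ear2 in Ctrl and 12.6, 9.74 and 13.3 in DPP3_KO.

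Genes that act on or beside these enzymes did not share the large difference. They included the inhibitor gene Rnh1, the angiogenin receptor gene Plxnb2 and ribonuclease genes outside the superfamily. Rnh1, whose protein binds and blocks these ribonucleases, had 125 ± 14.2 TPM in Ctrl against 82.4 ± 7.63 in DPP3_KO. Its log2 change was -0.59 (limma adjusted p = 0.0347), close to the median of all genes, and 0.06 with ratio scaling. With the replicate number as a block its adjusted p in limma was 0.0671. Plxnb2 stood at 143 ± 7.75 and 146 ± 36.1 TPM and did not pass (limma adjusted p = 0.998). The lysosomal ribonuclease gene Rnaset2a was lower as deposited (-0.85, limma adjusted p = 0.0291), and not with ratio scaling (0.654). Rnaset2b, a close copy of Rnaset2a that can share its reads, and Rnasek were higher at 0.73 and 0.58 (limma adjusted p = 0.0384 and 0.0469), and at 1.39 and 1.24 with ratio scaling (0.0466 and 0.0457). The sum of Rnaset2a and Rnaset2b was not fitted, so the opposite changes of these copies cannot be read for each copy alone. The replicate block took the adjusted p of Rnaset2a, Rnaset2b and Rnasek to 0.0503, 0.0682 and 0.0881. None of the calls of Rnh1, Rnaset2a, Rnaset2b and Rnasek held as deposited in every fit that left out 1 library, and that of Rnasek held in none (limma adjusted p of 0.0266 to 0.148 over the 4 genes, highest without Ctrl replicate 2). With ratio scaling, the call of Rnaset2b held only without DPP3_KO replicate 1, and that of Rnasek was lost with any library left out.

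Eosinophil granule genes gave little signal in these lungs. The peroxidase gene Epx stood at 0.05 TPM or less in every library, and Il5ra, Prg3 and Ccr3 also stayed under 1 TPM in all 6. Prg2, the major basic protein gene, was at 3.36 TPM in Ctrl replicate 3 and at 0.500 or less in the other libraries. Of 7 eosinophil markers only Siglecf and Alox15 passed the filter, and Siglecf is also a marker of alveolar macrophages. Alox15 stood at 10.25, 0.760 and 0.420 TPM in Ctrl and at 16.4, 6.92 and 0.270 in DPP3_KO. Its log2 change was 0.88, and it was not called (limma adjusted p = 0.537). The eosinophil attractant genes Ccl11 and Ccl24 were at 3.20 to 7.53 and 0.730 to 3.92 TPM. Of 10 recruitment and growth factor genes 7 were tested, and 1, Il33, was lower as deposited (log2 change -1.28, limma adjusted p = 0.0414) and 0 with ratio scaling. Il33 passed only with all libraries or without Ctrl replicate 3 (limma adjusted p = 0.0242 to 0.129 with 1 library left out). Csf2rb2, Csf2rb and Csf2ra, receptor chains for the growth factor on which alveolar macrophages depend, stood at -1.33, -1.59 and -1.17 and did not pass (limma adjusted p = 0.0515, 0.0574 and 0.183), but passed without DPP3_KO replicate 2 (0.0312, 0.0300 and 0.0482).

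Alveolar macrophage markers were lower in part. Of 15 markers 11 were lower and 0 higher as deposited, where 34.0% of all genes tested were lower, with a median log2 change of -1.66. With ratio scaling 6 were lower, where 0.880% of all genes were, with a median of -1.01. The 4 not called as deposited were Marco (-0.96), Chil3 (-1.66), Cidec (-0.78) and Fabp4 (0.16), with limma adjusted p of 0.645, 0.149, 0.368 and 0.590, and Fabp4 stood at 0.81 with ratio scaling (0.146). The list was drawn up with earlier results of these lungs known and is not independent evidence of its direction. Atp6v0d2, a proton pump subunit, was at -3.83 (limma adjusted p = 0.00449), the mannose receptor gene Mrc1 at -2.22 (0.00449), Krt79 at -4.26 (0.00763) and Siglecf at -3.05 (0.0144). All 4 also passed with ratio scaling, at -3.29, -1.59, -3.82 and -2.64, where Mrc1 lost its call without DPP3_KO replicate 2 (limma adjusted p = 0.0529) and Siglecf without Ctrl replicate 1 or 2 or DPP3_KO replicate 2 or 3 (0.0527 to 0.0673). The summed level of the 15 markers was 1482 to 3136 TPM in Ctrl and 393 to 1890 in DPP3_KO, the highest in DPP3_KO being replicate 2. Chil3, which was not called, supplied 2347 of the 3136 TPM in Ctrl replicate 3 and 1404 of the 1890 in DPP3_KO replicate 2. The highest sum of each group was thus mostly that of 1 gene. In bulk tissue, fewer cells of a type and less RNA per cell cannot be told apart.

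Set against these markers within each library, Ear2 did not keep a constant ratio. There were 27.8, 24.1 and 25.7 TPM of Ear2 per TPM of Mrc1 in Ctrl and 5.93, 26.3 and 10.7 in DPP3_KO, so DPP3_KO replicate 2 lay within the Ctrl range and the other 2 below it. Per TPM of Siglecf there were 97.0, 73.4 and 177 TPM of Ear2 in Ctrl and 123, 294 and 389 in DPP3_KO. Siglecf itself stood at only 0.450, 0.880 and 0.250 TPM in DPP3_KO, so its ratio is poorly determined there. Marco and Chil3, also macrophage genes, did not follow the Ear genes in Ctrl, where replicate 3 had 256 TPM of Marco against 55.0 and 42.6, while the Ear sum of that library lay between those of the other 2. In DPP3_KO Marco was at 1.79, 244 and 123 TPM and Chil3 at 135, 1404 and 282, and both were highest in replicate 2, as Ear2 was.

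Other cell types differed between libraries too. The 10 neutrophil markers summed to 3917, 6966 and 52229 TPM in Ctrl and to 1630, 34310 and 15401 in DPP3_KO, with 0 members called in either direction. The library order of this sum in DPP3_KO was that of Ear2, and in Ctrl it was not. The 7 hepatocyte markers, of interest because liver expresses Ang and Rnase4, summed to 79.0, 26.9 and 28.2 TPM in Ctrl and 182, 4.23 and 4.80 in DPP3_KO. Replicate 1 was the highest of each group in this sum, in Ang and in Rnase4. Endothelial markers (6 of 7 lower, 3 with ratio scaling) summed to 1779 to 2055 TPM in Ctrl and 383 to 734 in DPP3_KO. Alveolar type 2 cell markers (5 of 9 lower, 0 with ratio scaling) summed to 26515 to 49400 TPM and 19075 to 29814. Interstitial macrophage and fibroblast markers had 0 of 7 and 0 of 8 members called. Of all genes tested 34.0% were lower as deposited and 0.880% with ratio scaling. The part of these cell types in the differences of the ribonuclease genes was not tested.

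**Figure D4:**
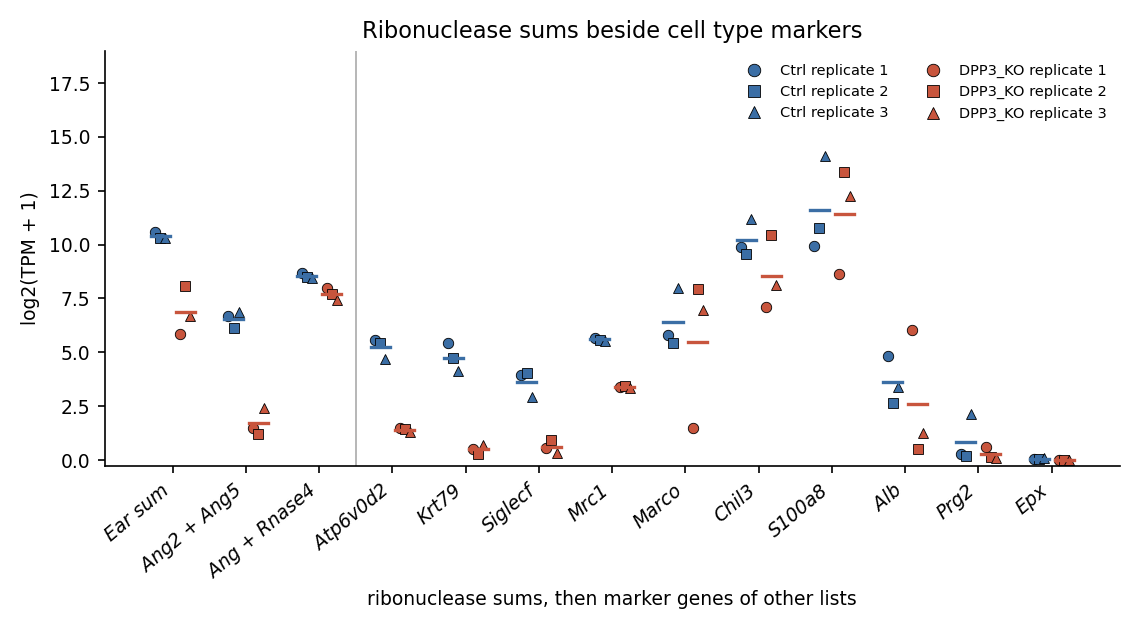
Ribonuclease sums and single marker genes as log2(TPM + 1) in each library, with Ctrl in blue, DPP3_KO in red, a marker shape for each replicate number and a bar at each group's mean. The Ear sum, Ang2 with Ang5, Atp6v0d2, Krt79, Siglecf and Mrc1 separate the groups, while Marco, Chil3, the neutrophil gene S100a8 and the liver gene Alb differ mostly between libraries of the same group, and Epx stays near 0, as does Prg2 other than in Ctrl replicate 3 (3.36 TPM).

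Over the 6 libraries the group difference makes up the larger part of the members' pattern. The members were picked with that difference in view, so high correlations among them are no further result. Pearson's r of log2(TPM + 1) between pairs of Ear1, Ear2, Ear6, Ear10, Ang2 and Ang5 ran from 0.892 (Ear2 with Ang5) to 0.990 (Ear6 with Ang2), and Ang had r = 0.907 with Rnase4 and 0.687 with Ear2. Of 13527 other genes tested and named, the 5 with the highest r with the Ear sum included Faim, Psmc6, Gfus and Zfp729a (r = 0.996 to 0.998). The changes of these 4 genes were much smaller, at -0.71, -0.53, -0.81 and -1.27 as deposited. The 5 most like the sum of Ang, Ang2, Ang5 and Rnase4 were Nxt2, Slc17a5, Erich1, Itm2a and Itsn1 (r = 0.995 to 0.997), with changes of -0.95, -0.60, -0.94, -1.57 and -0.73. These likenesses rest on 6 libraries of 2 groups, share each library's scaling and are a description.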

How the data were processed

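RNA sequencing of 6 mouse lung libraries was used, 3 per group, with groups and replicate numbers from the sample titles. The third Ctrl title carries another number for the cell line (232), read as a slip for 231. The authors deposited 1 table of TPM for 56980 genes with their lengths. The submitters' processing notes name HISAT2, StringTie, RSEM and GRCm39 but no role or version. Annotation release, strand setting, depth and handling of human reads were not found there or in the labels, so there is no counting interval. Every value column matched a sample. Per the labels' protocols, a TruSeq kit was used on total RNA.

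Genes whose mean reached 1 TPM (15650) were kept, and their log2(TPM + 1) values were fitted with limma 3.58.1 in R 4.3.3 (intensity trend, two-sided, Benjamini-Hochberg adjustment over all genes tested, threshold 0.05). After median-of-ratios scaling 15570 genes passed the same filter. With 3 samples against 3 an exact permutation test cannot go below p = 0.1, so none is given for single genes. Sums add TPM before the log, with the SE of a linear model over the 6 values. The members and lists were chosen with earlier results of these data known. Named genes were the members, all tested genes of both ribonuclease lists, the 4 with the smallest p of the other lists described, and the 5 most correlated with each sum, of which 2 genes are not reported here. Ear-ps2, Marco, Chil3, Cidec, Fabp4, the ligand genes and the granule genes, S100a8, Alb and Ang6 were named after their values were seen. Of the marker lists, those of club cells (4 of 8 higher), cardiac muscle (5 of 6 higher) and adipocytes (1 of 5 tested higher) had 0 lower members.

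GENCODE M21 transcripts were matched by gene identifier for 8 of 8 members, 7 with a transcript of the deposited length. Coding sequences were taken as the longest open reading frame, and identities come from global alignments with Biopython 1.88. The code of the fit was run on simulated data, and no result of that is used here. Alternatives were other pseudocounts, filters, scalings and variance models, the replicate number as a block, and each sample left out.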

Additional observations from a re-analysis of the deposited data

How the results depend on the processing

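The depth behind TPM is unknown, which limits values under about 1 TPM most, such as those of Ear6 and Ang4 in DPP3_KO. The Ear sum kept its direction in all settings and moved by less than the replicate spread in those that kept all libraries. With 1 library left out it ranged from -4.12 to -3.02 as deposited and from -3.37 to -2.34 with ratio scaling. The sum of the angiogenins and Rnase4 was -0.49 with ratio scaling, -0.69 after quantile normalization and -0.84 with TPM rescaled without Scgb1a1, and -1.29 to -1.02 as deposited and -0.61 to -0.39 with ratio scaling with 1 library left out. Genes called lower numbered 3093 without a filter, 137 with ratio scaling, 140 after quantile normalization and 353 without Scgb1a1. Genes called higher numbered 305, 327 and 129 under the last 3, so that more genes were higher than lower under the first 2 of these and not without Scgb1a1. With 1 library left out, 85 to 5049 genes were lower and 6 to 161 higher as deposited, and 8 to 177 and 21 to 196 with ratio scaling. The cause of these shifts was not tested.

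Directions turned in some settings, given here as ratio scaling, quantile normalization, then the range over both scalings with 1 library left out. Ang was at 0.12, 0.13 and -0.67 to 0.25. Rnase1 was at 0.042, 0.17 and -0.42 to 0.29, and Rnase2a at 0.14, 0.19 and -0.49 to 0.56. Rnh1 was at 0.063 with ratio scaling and -0.67 to 0.15 over libraries left out. Plxnb2, at -0.00079 as deposited, was at 0.66, 0.49 and -0.17 to 0.87, and at 3.4e-05 with a pseudocount of 5, 0.0094 without mitochondrial and haemoglobin genes and 0.31 without Scgb1a1. With 1 library left out Rnaset2a ranged from -1.03 to 0.036 and Csf2ra from -1.80 to 0.20.

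The replicate number as a block gave 212 genes higher and 4734 lower, and left both sums at -3.52 and -1.15. Same-numbered samples deviated from their group means with correlations of 0.27, -0.21 and 0.15, so the numbers were not taken to pair the samples.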
